A study of Rattus norvegicus with 9 samples.

Results

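Small RNA of the left ventricular free wall was sequenced from 3 male Sprague-Dawley rats aged 8 months, with 1 library each from the epicardium, mid-myocardium and endocardium of hearts 6, 7 and 8 (9 libraries, n = 3 per layer). No animal was treated, and the layers were cut by hand, so every library holds cardiac muscle together with vessels, blood and connective tissue cells. The isomiRs described here are the rat reads classed as "Mature sub", which match the listed mature miRNA without a mismatch but are shorter than it. The class held 757 of the 31220 different rat sequences and of the 46358 annotated sequences in all. It comprised 1328588 of 6248238 rat reads, which is 21.3% of the pooled rat reads. Levels are given in RPMM, the deposited unit, in which every library is scaled to the same total of annotated reads. A RPMM value therefore depends on all other annotated reads of the library, and a miRNA's trimmed share is the percentage of the reads on its mature arm that fall in this class.

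A mature miRNA is a single strand cut from a hairpin precursor and loaded into an Argonaute protein. Bases 2 to 8, the seed, are the main contact with target mRNAs. A loss at the 3′ end leaves the seed in place, whereas a loss at the 5′ end moves every base of it. Ends that differ from the listed ones are known to arise from the cuts made by Drosha and Dicer and from exonucleases and tailing enzymes that act on the 3′ end.

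The trimmed sequences with the most reads are shown first, beneath the listed mature form of each miRNA, because a handful of them made up most of the class. They are written 5′ to 3′ as DNA, as in the deposited table, with the seed in capitals.

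miR-143 mature: tGAGATGAagcactgtagctca
miR-143 less 1 nt at the 3′ end: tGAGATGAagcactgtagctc
miR-143 less 2 nts at the 3′ end: tGAGATGAagcactgtagct
miR-27b mature: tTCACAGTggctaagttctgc
miR-27b less 1 nt at the 3′ end: tTCACAGTggctaagttctg
miR-10a mature: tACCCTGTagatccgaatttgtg
miR-10a less 1 nt at the 3′ end: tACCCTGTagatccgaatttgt
miR-181a mature: aACATTCAacgctgtcggtgagt
miR-181a less 1 nt at the 3′ end: aACATTCAacgctgtcggtgag
miR-125a mature: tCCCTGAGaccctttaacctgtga
miR-125a less 2 nts at the 3′ end: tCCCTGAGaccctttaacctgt
miR-30a mature: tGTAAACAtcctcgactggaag
miR-30a less 2 nts at the 3′ end: tGTAAACAtcctcgactgga
miR-22 mature: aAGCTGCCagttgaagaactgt
miR-22 less 1 nt at the 3′ end: aAGCTGCCagttgaagaactg

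In the RefSeq annotation of the rat assembly GRCr8, miR-27b lies at chr17:1819163-1819183 on the minus strand within the protein-coding gene Aopep. miR-10a lies at chr10:81779730-81779752 on the plus strand, with no other annotated gene over it. miR-125a lies at chr1:67350689-67350712 on the plus strand within Spaca6, and miR-30a at chr9:33233946-33233967 on the plus strand outside other genes. miR-181a has 2 copies, at chr3:43025601-43025623 within Nr6a1 and at chr13:52037081-52037103 within a long non-coding RNA, both on the plus strand. miR-22 lies at chr10:60805387-60805408 on the plus strand, and miR-143 within the long non-coding RNA gene Carmn.

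The class was dominated by few sequences. The miR-143 form less 1 nt was read 253543 times and held 19.1% of the class, and together with the form less 2 nts (193320 reads) it held 33.6%. The 10 leading sequences held 66.7%, and the 81 sequences with at least 1000 reads held 96.6%. In contrast, 362 sequences had fewer than 10 reads and 144 had a single read. There were 253 sequences present in all 9 libraries.

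All but 3 of the 757 sequences, which had 11 reads in all, could be placed on a listed mature sequence, and none of those placed had lost more than 2 nts at either end. Loss was almost wholly at the 3′ end. Of the placed reads, 61.8% had lost 1 nt and 33.1% had lost 2 nts at the 3′ end alone. A single nt lost at the 5′ end alone accounted for 3.24%, and 1 nt lost at each end for 1.03%. The remaining 4 combinations each held 0.385% or less. The libraries were alike in this respect: reads shortened at the 3′ end alone made up 94.8% ± 0.77 (SD, n = 9) of the class, with a range of 93.8 to 96.1%. Different sequences were divided more evenly than reads, since 414 of the placed sequences, with 67608 reads, had lost at least 1 nt at the 5′ end. Most reads were 21 nts long (45.3% ± 3.14, n = 9) or 20 nts (35.01% ± 3.35), with 17.7% ± 4.01 at 22 nts.

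**Figure D1:**
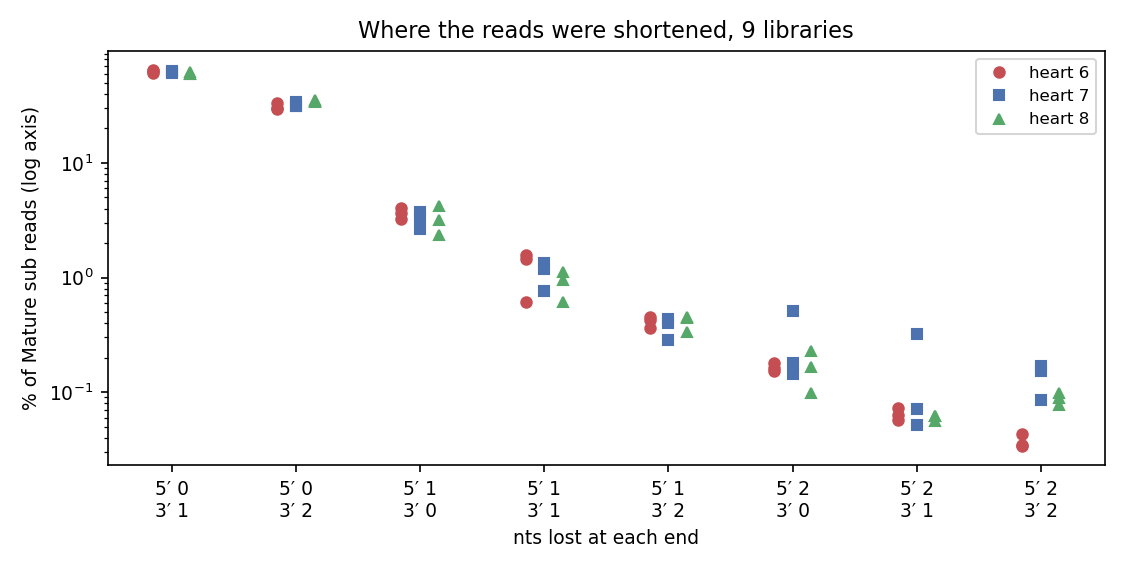
Percentage of Mature sub reads (log axis) for each combination of nts lost at the 5′ and 3′ ends, 1 point per library with hearts 6, 7 and 8 in red circles, blue squares and green triangles. The 2 classes shortened at the 3′ end alone hold 61.8% and 33.1% of pooled reads, and 1 heart 7 library stands above the others where 2 nts are lost at the 5′ end with 0 or 1 nt at the 3′ end.

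Reads that lay inside the mature sequence but had lost 3 or more nts at an end were not in the class: the deposited table files them under its precursor class. There were 1106 such sequences with 93854 reads, or 7.06 for every 100 reads of the class, and 59.7% of these reads had lost 3 nts at the 3′ end alone. miR-143 less 3 nts (13554 reads), miR-125a less 3 (7977) and miR-22 less 3 (7645) were the most frequent. The cut-off therefore leaves the shortest forms of the same miRNAs uncounted in the shares below.

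The amount of trimming differed widely between miRNAs. There were 95 names with at least 1000 reads on the mature arm, of which 86 had a mature entry of their own. Among these 86 the median trimmed share was 16.3% (quartiles 6.34 and 33.1%), with 9 over 50% and 14 under 5%. Trimmed reads outnumbered the exact mature sequence for 30 of them. The form less 1 nt at the 3′ end outnumbered the form less 2 for 66 and the reverse held for 19. Forms that match several miRNAs are listed under joined names and are left out of this count, such as miR-103 and miR-107 less 2 nts.

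miR-143, an abundant miRNA of smooth muscle, provided 33.8% of all reads of the class. Its trimmed share was 57.1, 49.6 and 54.4% in the epicardium of hearts 6, 7 and 8, then 53.4, 51.6 and 45.5% in the mid-myocardium and 48.6, 54.96 and 52.7% in the endocardium. The layers overlapped and the mean was 52.0% ± 3.60 (n = 9), against 7.91% for the exact mature sequence. Loss of 1 nt (29.0%) and of 2 nts (22.7%) were both common, and loss at the 5′ end was rare at 0.221%.

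miR-10a, which is encoded in a Hox gene cluster, had the highest trimmed share of any miRNA with its own mature entry, at 76.2% ± 1.44 (range 72.9 to 77.9%, n = 9), and only 7.88% of its reads were the exact mature sequence. Its leading form less 1 nt was at 19071, 13212 and 16488 RPMM in the epicardium of hearts 6, 7 and 8, 15796, 14234 and 1935 in the mid-myocardium and 2160, 10663 and 12250 in the endocardium. The mid-myocardium of heart 8 and the endocardium of heart 6 were thus far below the other libraries in amount, while their trimmed shares of 76.8% and 76.6% were within the range of the rest. 

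miR-497 (75.01% ± 5.96) and miR-425 (72.5% ± 8.82) followed, each almost entirely through loss of 1 nt (73.6% and 70.9%). miR-125a (68.0% ± 6.96) and miR-351 (67.0% ± 6.39) mostly lost 2 nts (61.0% and 48.9%). Both share the seed CCCTGAG with miR-125b, and all 3 mature entries end in GA, the dinucleotide absent from the forms less 2 nts. The miR-425 entry ends in GA too, but it was read 775 times less 1 nt and 12 times less 2 nts. miR-27a (63.1% ± 2.34) and, further down, miR-27b (54.5% ± 4.33), which share the seed TCACAGT and sit in separate clusters, lost the final C most often (40.7% and 51.2%), and loss of the final GC was more frequent in miR-27a (22.0%) than in miR-27b (2.96%). miR-107, between these 2, had 55.5% ± 6.43 under its own name, and 60.5% ± 2.67 of the reads that cannot be told between miR-103 and miR-107 were trimmed. The mature sequences of miR-103 and miR-107 differ in the second-last base. Their forms less 2 nts at the 3′ end therefore match both and count under the joined name only, which has no exact mature form by construction.

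miR-497 mature: cAGCAGCAcactgtggtttgta
miR-497 less 1 nt at the 3′ end: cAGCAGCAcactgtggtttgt
miR-425 mature: aATGACACgatcactcccgttga
miR-425 less 1 nt at the 3′ end: aATGACACgatcactcccgttg
miR-351 mature: tCCCTGAGgagccctttgagcctga
miR-351 less 2 nts at the 3′ end: tCCCTGAGgagccctttgagcct

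At the other extreme were miR-10b (0.0810%, 18 of 13765 reads), miR-152 (1.12%), miR-208 (1.18%), miR-30c (1.40%) and miR-301a (2.06%). In the case of miR-10b, just 0.00779% of the reads were the exact mature sequence, and nearly all were of the table's class that is shorter than the listed sequence at one end and longer at the other. Abundance and trimming did not go together at the top: miR-22, with 1094441 reads the most abundant of these names, had a trimmed share of 4.72% ± 0.65, but this still placed it seventh by amount in the class at 6848 RPMM. The next in amount after miR-143 (56584 RPMM) were miR-10a (15710), miR-27b (13002), miR-181a (10516), miR-30a (10495) and miR-125a (8040).

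**Figure D2:**
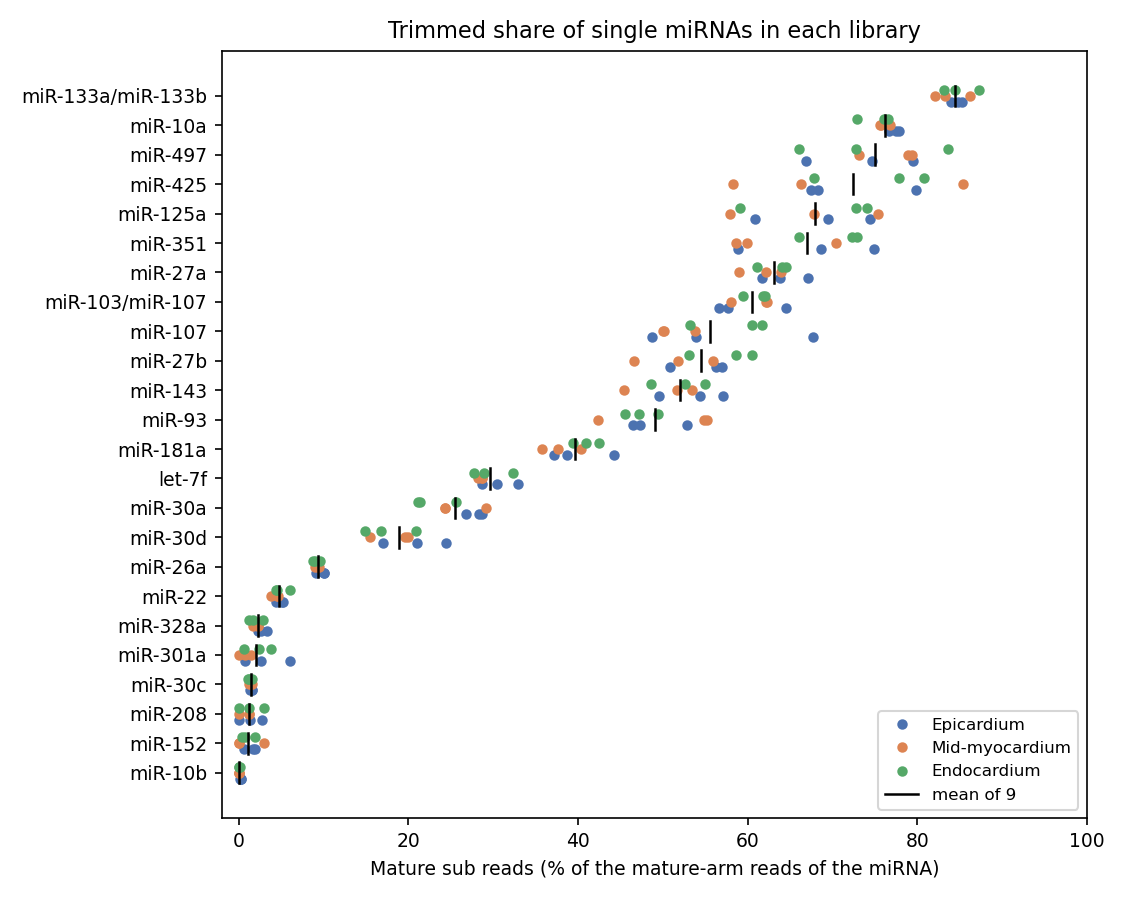
Trimmed share of 24 miRNA names in each of the 9 libraries (points coloured by layer) with the mean (black bar), as a percentage of the mature-arm reads of the miRNA. Shares run from 84.5% for the reads shared by miR-133a and miR-133b and 76.2% for miR-10a down to 0.0810% for miR-10b, and the points of the 3 layers overlap for most names.

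Most of the cardiac and skeletal muscle miRNAs had low trimmed shares under their own names, and for 3 of them the share depends on how the table files their reads. The shares were 2.84% ± 0.40 for miR-1, 2.54% ± 0.34 for miR-133a, 1.18% ± 1.12 for miR-208 and 16.1% ± 2.47 for miR-499, whose host gene is a myosin heavy chain. Of the miR-1 reads, 80.5% ± 1.14 carried a mismatch to the listed sequence and so cannot be in the class, while they count in the total. Just 16.0% ± 1.15 were the exact mature sequence of miR-1, and shortened reads with a mismatch accounted for 10.3% ± 1.83. The listed miR-208 sequence has just 18 nts, so that only reads of 17 nts or fewer can count as trimmed, and 81.5% ± 4.17 of its reads were longer than the entry. In the case of miR-133a, the mature sequence differs from that of miR-133b in the last base, so that once this base is lost the reads match both, and the table lists them under a joined name. That name had a trimmed share of 84.5% ± 1.62 and no exact mature form by construction. With the joined reads added, the share of miR-133a was 4.09% ± 0.55 (n = 9).

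Within families the spread was wide. The 8 let-7 members with a value, including miR-98, had shares between 14.5% (let-7i) and 37.1% (let-7e), with a median of 30.7%, and let-7f less its final T was read 28374 times. Among the 5 miR-30 members, which share one seed, miR-30a (25.5%) and miR-30d (18.9%) were trimmed far more than miR-30e (3.41%), miR-30b (2.89%) and miR-30c (1.40%). miR-29a (41.0%), miR-29c (29.7%) and miR-29b (20.6%), a family known to target collagen mRNAs, were all above the median of 16.3%, and miR-26a (9.37%) and miR-26b (5.84%) were below it.

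miRNAs from the 5′ arm had a median trimmed share of 18.2% (45 miRNAs) and those from the 3′ arm of 13.3% (31 miRNAs), and 10 were not assigned to an arm. The median was 9.75% for the 18 mature entries of 21 nts, 18.2% for the 49 of 22 nts and 20.6% for the 15 of 23 nts. By the last listed base, the median share that had lost this base alone was 12.4% for A (19 miRNAs), 11.7% for T (36), 9.44% for G (20) and 4.73% for C (11). These are descriptions across miRNAs, which are not replicates.

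Within the class, loss at the 5′ end was concentrated in a few miRNAs. Class reads with such a loss were under 1% of the mature-arm reads for 75 of the 86 miRNAs and over 5% for 3. miR-504 had 43.0% ± 5.46 (n = 9), almost all of its trimmed reads, followed by miR-10a with 12.5% ± 1.28 and miR-126, an endothelial miRNA, with 9.64% ± 1.66. miR-191 (3.09% ± 0.12) and miR-133a (2.54% ± 0.34) came next. For miR-133a this covers a small part of the 5′ loss: 46.9% ± 2.73 of its reads lacked the first base without a mismatch, and most of these extended past the listed 3′ end and were filed in the class of reads shorter at one end and longer at the other. Of the miR-208 reads, 7.32% ± 1.55 lacked the first base without a mismatch, and 0.640% ± 0.654 did so within the class. For most other miRNAs such reads outside the class were not counted. The leading forms of the class that lack the first base follow the mature entries, with the seed in capitals, because the seed they would present differs from the listed one.

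miR-504 mature: aGACCCTGgtctgcactctgtc
miR-504 less 1 nt at the 5′ end: gACCCTGGtctgcactctgtc
miR-126 mature: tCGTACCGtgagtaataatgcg
miR-126 less 1 nt at the 5′ end: cGTACCGTgagtaataatgcg
miR-10a less 1 nt at each end: aCCCTGTAgatccgaatttgt
miR-133a mature: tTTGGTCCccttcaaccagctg
miR-133a less 1 nt at the 5′ end: tTGGTCCCcttcaaccagctg

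miR-504 lies at chrX:142354466-142354487 on the minus strand within Fgf13, and miR-126 at chr3:29813219-29813240 on the plus strand within Egfl7, a gene of endothelial cells (GRCr8). The shifted miR-133a form was read 15765 times, more than any other form of the class shortened at the 5′ end. The seeds of most shifted forms were not among the 585 different seeds of the rat mature miRNAs in RefSeq. There were 46 of the 414 forms, holding 2.42% of the reads with a 5′ loss, whose seed was that of another rat miRNA. miR-27b less its first base, with 356 reads when 1 nt was also lost at the 3′ end, has the seed CACAGTG of miR-128, and let-7f less its first base (157 reads) has the seed AGGTAGT of the miR-196 family.

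A group of miR-181a sequences lacking the first 2 bases was nearly confined to 1 library, the endocardium of heart 7. They are printed because their reads raise the 5′ loss of that library, in which 0.979% of the class had lost 2 nts at the 5′ end, against 0.232 to 0.418% in the other 8.

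miR-181a less 2 nts at the 5′ end: cATTCAACgctgtcggtgagt
miR-181a less 2 nts at the 5′ end and 1 nt at the 3′ end: cATTCAACgctgtcggtgag
miR-181a less 2 nts at each end: cATTCAACgctgtcggtga

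The first was at 735 RPMM in that library (1050 of its 1082 reads) and at 10.6 RPMM or less in every other library. The second was at 499 RPMM (713 of 730 reads) against 5.31 or less, and the third at 167 RPMM (239 of 246 reads) against 1.90 or less. The other 2 layers of heart 7 did not share this excess.

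The design compares the 3 layers of the ventricular wall. The class made up 20.8, 21.2 and 25.9% of the rat reads in the epicardium of hearts 6, 7 and 8, 19.5, 22.04 and 15.7% in the mid-myocardium and 17.6, 25.1 and 21.3% in the endocardium. The 3 layers overlapped. The mid-myocardium was lower than the epicardium by a mean of 3.54 percentage points (19.1% ± 3.20 against 22.6% ± 2.82, n = 3 each) in a two-sided exact permutation test with p = 0.3. The endocardium (21.3% ± 3.73) differed from the epicardium by -1.28 points (exact permutation p = 0.7), and the mid-myocardium from the endocardium by -2.27 points (exact permutation p = 0.5). With 3 libraries against 3 this test cannot go below 0.1, and swapping the layers within hearts cannot go below 0.25. This exact swap within hearts gave p = 0.75, 0.5 and 0.5 for the same comparisons in the order endocardium and mid-myocardium against epicardium, and mid-myocardium against endocardium. Counting error was far smaller than these differences, since the 95% Wilson interval of the lowest library was 15.6 to 15.8%.

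miR-143 alone made up between 10.5 and 19.2% of the rat reads and between 25.6 and 41.1% of the class in single libraries. Without miR-143 the class made up 12.4 to 19.5% of the remaining rat reads, and the mid-myocardium was below the epicardium in 3 of 3 hearts, by a mean of 2.74 points (exact permutation p = 0.2; swapped within hearts, exact p = 0.25). The summed level of miR-143 and miR-145, taken as smooth muscle miRNAs, ranged from 91717 to 154785 RPMM over the libraries, and that of the cardiac muscle miRNAs from 53438 to 140922. The epicardium of heart 8 (25.9% of rat reads in the class) and the endocardium of heart 7 (25.1%) had the highest smooth muscle sums, 154785 and 144256 RPMM, and the lowest cardiac muscle sums, 53438 and 60668 RPMM. The mid-myocardium of heart 8, with the lowest share of the class (15.7%), had the lowest smooth muscle sum, 91717 RPMM, and the highest cardiac muscle sum, 140922 RPMM. These sums are not independent of the share of the class. The smooth muscle sum was mostly miR-143 (heart means 97492 to 117469 RPMM, against 1213 to 2229 for miR-145), which also leads the class. miR-145 did not follow miR-143 by heart: it was at 1815 to 3049 RPMM in heart 6 and 937 to 1485 in heart 8. The smooth muscle sum thus describes miR-143 alone. The cardiac muscle sum was mostly miR-133a (heart means 79819 to 92228 RPMM), which counts in the rat reads but was little trimmed. The part of cell makeup in the differences between libraries was not tested. In bulk tissue, fewer cells of a type and less RNA per cell cannot be told apart.

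**Figure D3:**
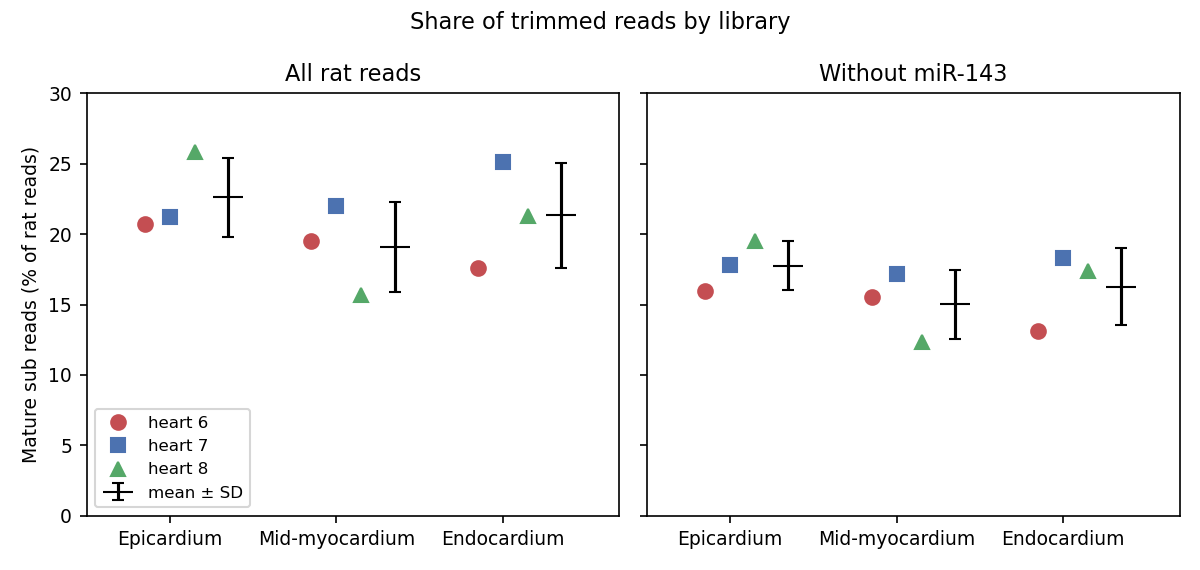
Mature sub reads as a percentage of rat reads in each library, by layer and heart (left), and after removal of miR-143 from both numerator and denominator (right), with the mean ± SD of 3 hearts. The layers overlap in the left panel, where libraries lie between 15.7 and 25.9%, and values fall to between 12.4 and 19.5% in the right panel.

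Loss at the 5′ end made up 4.75% ± 0.31 of the class in the endocardium, 5.25% ± 1.18 in the epicardium and 5.68% ± 0.48 in the mid-myocardium (n = 3 each). The mid-myocardium exceeded the endocardium by 0.93 points, with no overlap of the libraries and higher values in 3 of 3 hearts. The exact permutation p was 0.1, the smallest this design allows, and the difference fell to -2.13 points (exact permutation p = 0.6) when different sequences were counted in place of reads. Without miR-143 the libraries overlapped, and the mid-myocardium was higher in 2 of 3 hearts, by a mean of 0.91 points (exact permutation p = 0.2). Over all reads of the class, the endocardium and epicardium (exact permutation p = 0.4) and the mid-myocardium and epicardium (exact permutation p = 0.8) differed by less than the mid-myocardium and endocardium.

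No trimmed sequence passed a test between layers. The level of each sequence was compared with limma on log2(RPMM + 1) over the 577 annotated sequences that averaged 100 RPMM or more in some layer, of which 95 were members of the class. These carried 97.5% of its reads, and the other 662 members fell below this level. The test called 0 of 95 members and 0 of 577 sequences (0.0%) in each of the 3 comparisons at an adjusted p of 0.05. At an unadjusted p under 0.05 it found 0 members for endocardium against epicardium, 1 for mid-myocardium against epicardium and 2 for mid-myocardium against endocardium. edgeR on the recovered reads also called 0 in each (unadjusted 2, 1 and 4), as did DESeq2 (unadjusted 1, 2 and 2). These fits had no term for heart, and limma with heart as a block called 0 as well (unadjusted 0, 7 and 3). The median log2 difference of the 95 members was -0.07, -0.02 and 0.01, beside 0.00, 0.01 and 0.01 over all 577. In the limma fit without the block, the member nearest to a call was miR-23b less 1 nt. It was higher in mid-myocardium than in endocardium by 0.84 on the log2 scale (SE 0.28, limma adjusted p = 0.82).

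The trimmed share of each miRNA gave the same outcome. With limma on the log2 ratio of trimmed to other mature-arm reads and layer alone in the model, 0 of 88 names (0.0%) passed in any of the 3 comparisons. Before adjustment, 3, 3 and 6 names had p under 0.05. The smallest limma adjusted p, 0.39, was shared by miR-23b, a neighbour of miR-27b (log2 0.53, SE 0.15, mid-myocardium above endocardium), and miR-664 (1.04, SE 0.31). Leaving out the epicardium of heart 8 brought miR-664 to an adjusted p of 0.029 in the same limma fit, the 1 call under any left-out library. With heart added to the limma model as a block, 0 names passed. miR-10b then had an adjusted p of 0.12 for mid-myocardium against epicardium (log2 -1.25), on 18 trimmed reads in all. The shares of miR-143 (53.7% ± 3.81, 50.2% ± 4.19 and 52.1% ± 3.22 in epicardium, mid-myocardium and endocardium) and miR-10a (77.4% ± 0.58, 76.1% ± 0.65 and 75.2% ± 1.99) show the size of the spread. Of the myomiRs, let-7, miR-30, miR-29 and miR-26 families 0 members passed. All 5 miR-30 members had a lower share in the endocardium than in the epicardium, with a median log2 difference of -0.30 beside -0.06 over all 88 names. None of these 5 passed the limma test (smallest adjusted p = 0.93). The direction was not particular to them, since all 8 let-7 members (median -0.07) and 54 of the 88 names were also lower.

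**Figure D4:**
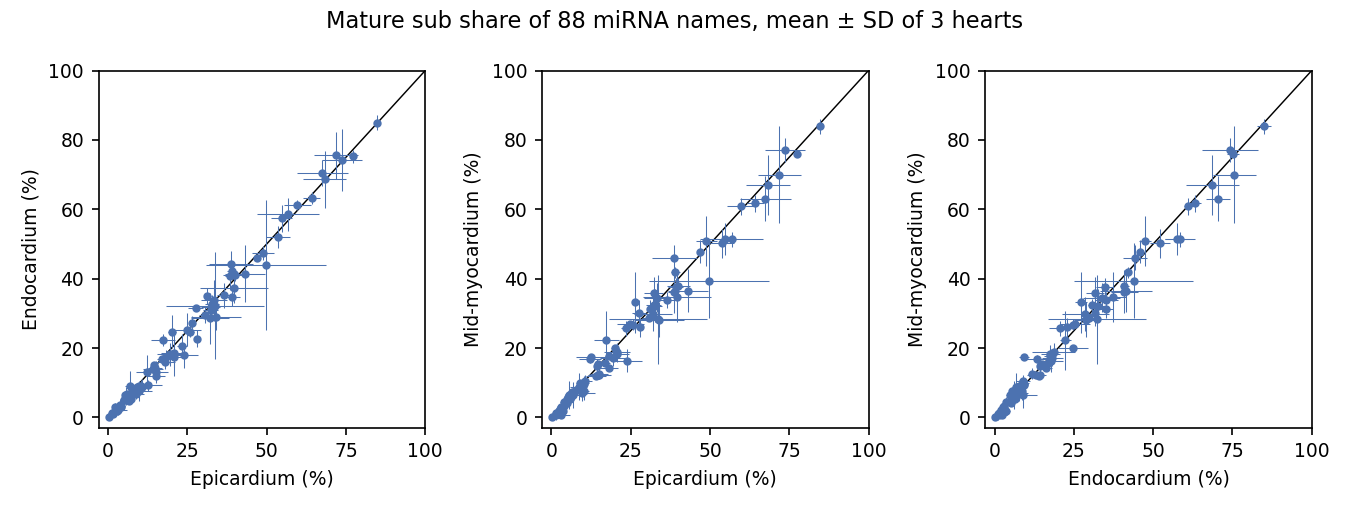
Mean trimmed share of 88 miRNA names in each layer against another (%, ± SD of 3 hearts), with the line of equality. The names lie along the line from 0.0810% to 84.5%, and 0 of 88 passed the test in each of the 3 comparisons.

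By contrast, certain trimmed forms differed between the 3 animals. With layer as a covariate, the limma test between hearts called 8 of the 95 members, against 34 of all 577 sequences (5.89%). At an unadjusted p under 0.05 there were 13 members. edgeR called 8 members and DESeq2 called 9, whereas limma called 0 when the filter was lowered to 10 reads, which adds many features to the fit. All 8 had lost nts at the 3′ end alone, as had 82 of the 95 members tested. Of the 13 tested members with a loss at the 5′ end 0 were called, too few tested to set the ends apart. In each of the 8, hearts 7 and 8 stood on the same side of heart 6, and 7 were higher in hearts 7 and 8. These 7 belonged to the miR-125 family (miR-125a and miR-125b, seed CCCTGAG), the miR-99/100 family (miR-99a, miR-99b and miR-100, seed ACCCGTA) and miR-191. The 2 families are encoded together: in GRCr8, miR-99b and miR-125a are separated by 541 bases with let-7e between them, miR-99a and let-7c-1 by 639 bases, and miR-100 and miR-125b-1 by 51661 bases with let-7a-2 between them.

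miR-125b mature: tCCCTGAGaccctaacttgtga
miR-125b less 1 nt at the 3′ end: tCCCTGAGaccctaacttgtg
miR-125b less 2 nts at the 3′ end: tCCCTGAGaccctaacttgt
miR-99a mature: aACCCGTAgatccgatcttgtg
miR-99a less 1 nt at the 3′ end: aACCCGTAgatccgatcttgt
miR-99a less 2 nts at the 3′ end: aACCCGTAgatccgatcttg
miR-100 mature: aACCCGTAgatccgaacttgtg
miR-100 less 1 nt at the 3′ end: aACCCGTAgatccgaacttgt
miR-99b mature: cACCCGTAgaaccgaccttgcg
miR-99b less 1 nt at the 3′ end: cACCCGTAgaaccgaccttgc
miR-191 mature: cAACGGAAtcccaaaagcagctg
miR-191 less 1 nt at the 3′ end: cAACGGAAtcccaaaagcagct

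The clearest case was miR-125b, which is abundant in muscle and in many other tissues. Its form less 2 nts was at 247, 176 and 207 RPMM in the epicardium, mid-myocardium and endocardium of heart 6, at 3856, 1733 and 1216 in heart 7 and at 2012, 1044 and 2924 in heart 8. Every library of hearts 7 and 8 was above every library of heart 6. The log2 difference was 3.27 for heart 7 and 3.13 for heart 8 against heart 6 (SE 0.42 each, limma adjusted p = 0.0071), a ratio of 10.8 and 9.5 between the means. The form less 1 nt did not follow: it was at 332 ± 45.6, 294 ± 79.0 and 314 ± 49.8 RPMM in hearts 6, 7 and 8 (n = 3 each, limma adjusted p = 0.99). All mature-arm reads of miR-125b together were at a mean of 3694, 6163 and 6188 RPMM, so that the trimmed share also changed, from 14.7 to 16.2% in heart 6 to 38.2 to 45.9% in heart 7 and 29.1 to 43.9% in heart 8 (log2 ratio higher by 1.98 and 1.70, SE 0.22, limma adjusted p = 0.0052).

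miR-125a also differed in the form less 2 nts. The form less 2 nts was at 2518, 2412 and 3090 RPMM in the 3 layers of heart 6, 15070, 9501 and 7964 in heart 7 and 8206, 5510 and 12023 in heart 8 (log2 1.97 and 1.62, SE 0.34, limma adjusted p = 0.021). The form less 1 nt was at 486 ± 64.8, 546 ± 55.9 and 487 ± 77.7 RPMM (limma adjusted p = 0.98). All miR-125a reads together were at a mean of 5458, 15655 and 13017 RPMM, so that the whole miRNA was higher in hearts 7 and 8 as well. Its trimmed share was 57.9 to 60.9% in heart 6 and between 67.9 and 75.3% in the others (limma adjusted p = 0.024).

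For miR-99a it was the form less 1 nt that differed, at 87.3, 63.4 and 30.9 RPMM in heart 6 against 1064, 449 and 360 in heart 7 and 966, 183 and 984 in heart 8 (log2 3.30 and 3.31, SE 0.57, limma adjusted p = 0.018). The form less 2 nts was at 82.3 ± 15.8, 100.3 ± 26.9 and 128 ± 37.4 RPMM (limma adjusted p = 0.61). The trimmed share rose from 23.1 to 29.5% in heart 6 to 37.9 to 61.6% in hearts 7 and 8 (limma adjusted p = 0.028).

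miR-100 less 1 nt was at 148 to 187 RPMM in heart 6 and 355 to 2280 in hearts 7 and 8 (log2 2.73 and 2.81, SE 0.51, limma adjusted p = 0.021), while the form less 2 nts was at 171 ± 24.1, 217 ± 80.8 and 267 ± 117 RPMM (limma adjusted p = 0.64). The mean of all miR-100 reads was 795, 4179 and 4706 RPMM. As a share of miR-100 the form less 1 nt was 19.1 to 21.6% in heart 6 and 22.9 to 33.6% in the others, and the form less 2 nts was 20.3 to 23.5% against 4.27 to 9.07%. The first was thus a larger and the second a smaller share in hearts 7 and 8, and the total trimmed share of 43.1%, 35.6% and 36.9% was not called (limma adjusted p = 0.25).

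For miR-99b the amount of the trimmed forms passed the test and the trimmed share did not. The forms less 1 and less 2 nts were both higher in hearts 7 and 8 (log2 2.45 and 2.33, SE 0.42, limma adjusted p = 0.019 for the first, and 2.71 and 2.69, SE 0.41, adjusted p = 0.011 for the second). The mean of all miR-99b reads was 2012, 10919 and 12540 RPMM in hearts 6, 7 and 8, and the trimmed share was 45.6, 48.1 and 47.0% (limma adjusted p = 0.87). let-7e, which lies 95 bases from miR-99b and 353 from miR-125a, had a share of 37.2, 36.7 and 37.5% (limma adjusted p = 0.97) and 735, 607 and 548 RPMM in hearts 6, 7 and 8.

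miR-191 less 1 nt was at 179 to 263 RPMM in heart 6 and 377 to 1473 in hearts 7 and 8 (log2 2.02 and 1.92, SE 0.37, limma adjusted p = 0.021), and its trimmed share was 4.46 to 5.25% against 7.01 to 13.2% (limma adjusted p = 0.024). Its form less the first base stayed between 2.83 and 3.28% of the miRNA in all 9 libraries. miR-425, 366 bases away from miR-191, had shares of 73.9, 70.6 and 73.0% in the 3 hearts (limma adjusted p = 0.94). The eighth sequence, miR-16 less 1 nt, was lower in hearts 7 and 8 than in heart 6 (log2 -1.11 and -1.04, SE 0.24, limma adjusted p = 0.041), with 512 to 546 RPMM in heart 6 and 230 to 294 elsewhere. All miR-16 reads were lower as well (5894, 3171 and 3028 RPMM), and the trimmed share of 9.79, 8.69 and 9.29% was not called (limma adjusted p = 0.87). The miR-16 call held in 4 of 15 alternative settings.

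**Figure D5:**
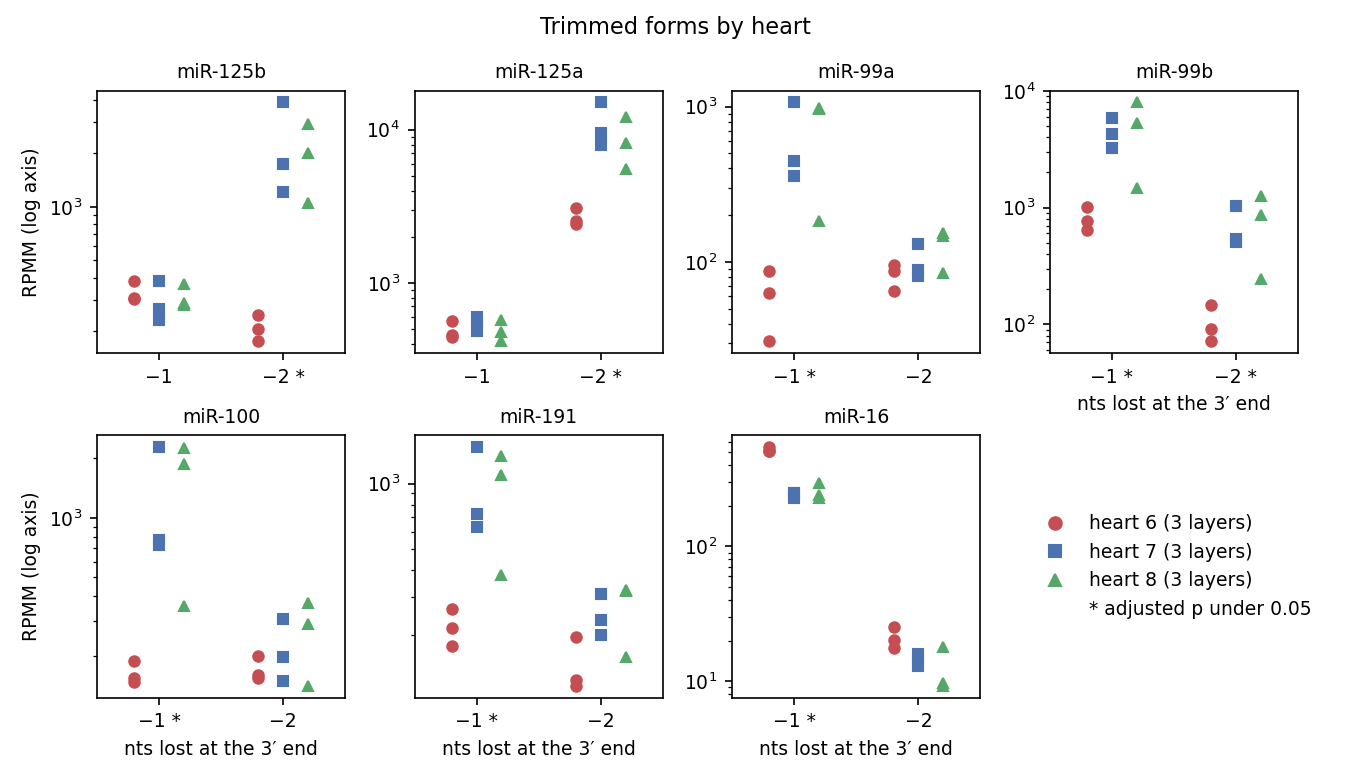
Level (RPMM, log axis) of the forms less 1 and less 2 nts at the 3′ end of 7 miRNAs, 1 point per library with the hearts in separate columns and symbols and asterisks at the 8 called forms. For miR-125b the form less 2 nts lies between 176 and 247 RPMM in heart 6 and between 1044 and 3856 in hearts 7 and 8, while the form less 1 nt overlaps between hearts.

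At the level of whole miRNAs the trimmed share differed between hearts for 5 of 88 names (5.68%), with 17 at an unadjusted p under 0.05. Besides miR-125b, miR-125a, miR-99a and miR-191 this included miR-208 (limma adjusted p = 0.016), a miRNA of cardiac myosin genes, but with only 23 trimmed reads in all. In heart 6 there were 0 of 137, 39 and 114 reads in the epicardium, mid-myocardium and endocardium, which allows shares of up to 2.19, 7.69 and 2.63%. These limits of single libraries overlap the 1.16 to 2.99% of the libraries of the other hearts. Summed over heart 6, 0 of 290 reads allow a share of up to 1.03%, which lies below that range. The range has counting error of its own, since it rests on the 23 trimmed reads, so this comparison cannot decide whether the shares differ. Of the 8 sequences called, 5 end in T, as do 33 of the 95 tested. Over the whole class, reads that had lost 2 nts at the 3′ end made up 30.2 to 33.5% in heart 6, 31.9 to 34.3% in heart 7 and 34.2 to 35.8% in heart 8, and hearts 6 and 7 overlapped. Without miR-143 they made up 21.8 to 24.3%, 28.6 to 32.3% and 30.2 to 31.9%, and heart 6 lay below both.

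These comparisons between hearts rest on heart 6 as the 1 animal that stood apart, and anything that was done to its tissue separately cannot be told apart from the animal. The 3 libraries of a heart are pieces of 1 ventricle, so the test measures differences between hearts against the spread between their layers. Without the epicardium of heart 6, limma called 0 of the 8 sequences and 0 of the 5 shares, and without its endocardium it called 0 sequences and 3 shares. It called 2 sequences without the epicardium of heart 7 or of heart 8 and 4 without the mid-myocardium of heart 7, and 2 shares without the epicardium or the mid-myocardium of heart 7. The direction of each called form and share was the same in every such fit. The sum of the leukocyte miRNAs (miR-142, miR-150 and miR-223) was at 9887 to 13407 RPMM in heart 6, 8718 to 12693 in heart 7 and 5737 to 8666 in heart 8, so that every library of heart 8 lay below those of heart 6. This sum was mostly miR-150 (heart means 10671, 9571 and 6718 RPMM). miR-142 went the other way, at 187 to 227 RPMM in heart 6 and 266 to 308 in heart 8, so the leukocyte miRNAs did not move together. The sums for red cells, endothelium, smooth muscle, fibroblasts and cardiac muscle overlapped between heart 6 and each of the other hearts. Minor members of the sums could still differ. miR-145 was lower in heart 8 (937 to 1485 RPMM) than in heart 6 (1815 to 3049), and miR-208 was higher (228 to 375 against 137 to 160). The part of cell makeup in the differences between hearts was not tested. Depth ranged from 283991 annotated reads in the mid-myocardium of heart 6 to 1428025 in the endocardium of heart 7.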

How the data were processed

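The authors sequenced TruSeq small RNA libraries, extracted with the miRNeasy kit, from 3 layers of 3 rat hearts, and annotated reads against miRBase 18 in CLC Genomics Workbench 4.0 (versions per the submitters' processing notes). Up to 2 mismatches were allowed. The deposited table of annotated reads gives RPM values per sequence, scaled by the authors to the annotated reads of each library. The 100% of values that are whole multiples of the smallest one (tolerance 0.01 reads) gave back the reads. The authors also deposited counts of 13317 unannotated sequences, which were not used, and a table grouped by miRNA, not used here.

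Each member was placed on the listed mature sequence of its miRNA to count the nts lost, with RefSeq used for 12. Positions and other miRNAs' seeds are from RefSeq (GRCr8). 77 of the 86 listed matures are identical in RefSeq. The trimmed share divides members by all reads on the mature arm, mismatched reads included, for names with at least 1000 reads. Names joined in the table, where a read matches several miRNAs, were kept joined.

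Levels were tested with limma 3.58.1 on log2(RPMM + 1) and shares on log2((trimmed + 1)/(other + 1)) over all 9 libraries with layer in the model, then between hearts with layer as a covariate, with Benjamini-Hochberg adjustment (threshold 0.05). In the text SE is limma's standard error. Single values were compared by two-sided exact permutation in Python 3.11.15. edgeR 4.0.16 and DESeq2 1.42.0 on the recovered reads were alternatives, with other filters, pseudocounts, denominators, left-out libraries and a heart block. The fits were tested on simulated data.

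Heart numbers pair the layers, since the labels give the same animal. Deviations from the layer means correlated at a mean of 0.32 within hearts and -0.15 between hearts, although not in every pair (-0.07 for the epicardium and endocardium of heart 7).

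Named miRNAs were the 10 with the highest and 5 with the lowest trimmed share, the 10 most abundant in the class, the 5 with most 5′ loss, those passing a test, and the members of 5 families. Members, lists and tests were chosen with earlier results of these data known. Depth was 283991 to 1428025 annotated reads per library, and intervals and limits (3 reads for a count of 0) cover counting error only.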

Additional observations from a re-analysis of the deposited data

Results flagged for a closer look

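Reads shortened by 3 or more nts at an end stood outside the comparisons because the table files them as precursor reads, and they were picked out as signal in data not otherwise used. They numbered 93854, or 62.0% of the 151323 rat precursor reads, and made up between 1.16 and 1.95% of the rat reads of a library (mean 1.48% ± 0.30, n = 9). Losses reached 10 nts. The 3′ end alone was shortened in 83015 of these reads and the 5′ end alone in 6172.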

How the results depend on the processing

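Of 415 recomputed values, 322 were classed as the same, 70 kept their direction but missed the threshold, 17 moved and 6 changed sign. For a difference, the same meant the same direction and side of the threshold. For a mean over the libraries it meant a value within the SD of the main one, and for a number of calls an equal or similar number. Many of the numbers of calls between layers were 0 in every setting. The mean share of the class (21.01% of rat reads) was 25.8% of the rat reads without a mismatch, 17.3% of all annotated reads and 16.4% without miR-143. The endocardium minus epicardium difference ranged from -3.15 to 0.58 points when 1 library was left out, and was positive without the endocardium of heart 6 (0.58) or the epicardium of heart 8 (0.35). Loss at the 5′ end (5.23% of reads) was 7.52% without miR-143 and 45.3% of different sequences, and counting different sequences gave differences of 0.0925 (endocardium minus epicardium), -2.03 (mid-myocardium minus epicardium) and -2.13 points (mid-myocardium minus endocardium). With 1 library left out the mid-myocardium minus epicardium difference in 5′ loss ranged from -0.25 (without the epicardium of heart 8) to 0.78. Between hearts, 0 to 8 sequences and 0 to 5 shares were called with 1 library left out, 0 sequences when the filter was lowered to 10 reads, and 1 share when names with 200 reads or more were taken. The share calls between mid-myocardium and endocardium ranged from 0 to 1. With the replicate block for heart, 0 sequences and 0 shares were called between layers. The block applies to the layer comparisons only, so it says nothing of the calls between hearts. The cause of these changes was not tested beyond the fewer libraries or the greater number of features in each fit. Depth limits the sequences under 100 RPMM, which were not tested singly.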
